A study of Drosophila melanogaster with 2 samples.

Results

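Deep medulla neuroblasts (NBs) were divided by the level of lncRNA:roX2, a non-coding RNA of the fly dosage compensation complex, and the cells that hold it were set against those without it. A deep NB here is a cell with at least 1 UMI (unique molecular identifier, 1 counted RNA molecule) of dpn and at least 1 of mira, 2 genes that mark NBs, with less than 10% of its UMIs on mitochondrial genes and with at least 20000 UMIs, with the 5 deepest cells left out. Members were chosen by the measured roX2 level. roX2-positive NBs are deep cells with at least 100 CPM of roX2, where CPM is the UMIs of a gene per 1000000 UMIs of the cell. roX2-free NBs are deep cells with 0 UMIs of roX2. The series holds 11891 cells, of which 1859 were deep NBs, and these comprised 609 roX2-positive NBs, 989 roX2-free NBs and 261 cells between the groups.

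The data are 2 single-cell libraries, 1 for each of 2 sequencing experiments, made on the 10x Genomics Chromium platform from brains of wandering larvae of the third instar. All larvae carried E(spl)mgammaGFP, a green reporter that marks NBs, together with the driver SoxNGal4, which turns on the red nuclear protein of UAS-RedStinger in medulla cells, over the balancer TM6B. Cells with both colours were sorted. Larvae were raised at 25 °C without treatment, and 120 larvae were pooled for each experiment. Both groups come from the same pools of larvae, and so share these transgenes, treatment, age and library. They were separated by the rule on roX2. The labels do not give the sex of the larvae, and no sex was assigned to a cell. Whether the groups are alike in sex chromosomes is therefore not known. Experiment 1 gave 90 roX2-positive NBs, 119 roX2-free NBs and 42 cells between, and experiment 2 gave 519, 870 and 219. The 2 libraries shared 9 cell barcodes, none of them among the deep NBs.

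In flies, males have a single X chromosome and females have a pair. In males the MSL complex, made of proteins and either roX1 or roX2 RNA, binds along the X chromosome and acetylates histone H4, which raises transcription of X-linked genes. In females the RNA-binding protein Sxl blocks the production of the MSL-2 protein, so that the complex does not form, and roX RNAs are known from males for this reason. roX1 and roX2 are both X-linked genes that differ in length and act redundantly.

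roX2 set the groups, and its level is given as a description. The summed roX2-positive NBs held 1028 roX2 UMIs (224 CPM) in experiment 1 and 6008 UMIs (209.7 CPM) in experiment 2. Per cell the roX2 level ran from 102 CPM through a median of 207 CPM to 1254 CPM in experiment 1, and from 100.3 CPM through 195 CPM to 784 CPM in experiment 2. The cells nearest to the limit of 100 CPM lay at 102 and 98.3 CPM on its 2 sides in experiment 1, and at 100.3 and 99.8 CPM in experiment 2, so the limit cuts a continuous range. Depth differed little between the groups: the median cell had 38447 and 49066 UMIs in the roX2-positive NBs of experiments 1 and 2, against 41940 and 52179 UMIs in the roX2-free NBs.

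roX1 was not used to choose the cells, and it was higher in the roX2-positive NBs of both experiments. The summed roX2-positive NBs had 4509 and 4192 CPM of roX1 in experiments 1 and 2, against 2767 and 2241 CPM in the roX2-free NBs, so the 2 groups did not overlap (10.6% of all genes tested had both roX2-positive sums above both roX2-free sums). This is 1.63-fold and 1.87-fold, and the log2 fold change of the fit was 0.80 (SE 0.05, adjusted p = 0.00294). The test is edgeR's quasi-likelihood test on the 4 sums of UMIs with the library as a block, and p-values were adjusted by the Benjamini-Hochberg method over all 7496 genes tested. The difference is one of degree: the median roX2-free NB still had 2857 CPM of roX1 in experiment 1 and 2422 CPM in experiment 2, beside 4718 and 4455 CPM in the median roX2-positive NB. Over cells, the middle 50% ran from 3938 to 5902 CPM in roX2-positive NBs of experiment 1 and from 3667 to 5407 CPM in those of experiment 2. In roX2-free NBs it ran from 2340 to 3397 CPM in experiment 1 and from 1854 to 3025 CPM in experiment 2.

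**Figure D1:**
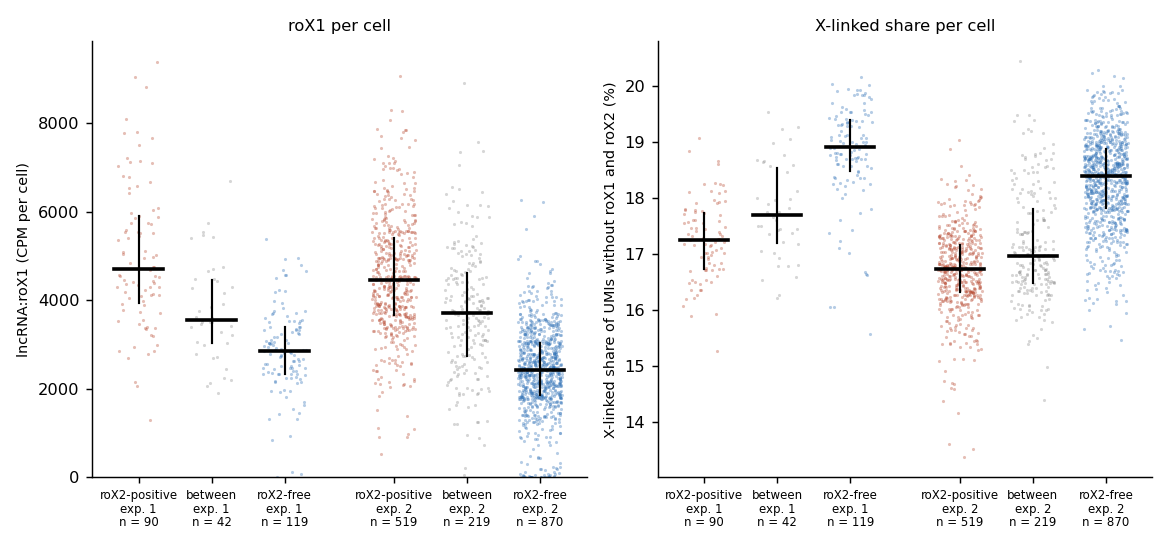
Level of lncRNA:roX1 (left, CPM per cell) and share of UMIs on X-linked genes without both roX genes (right, percent; the axis does not start at 0) in each deep neuroblast, by group and experiment. Each point is a cell, the thick line is the median and the thin line spans the quartiles; the median roX1 level is 4718 and 4455 CPM in roX2-positive cells and 2857 and 2422 CPM in roX2-free cells of experiments 1 and 2.

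A roX1 UMI was present in all roX2-positive NBs of both experiments, and in 99.2% and 98.7% of the roX2-free NBs of experiments 1 and 2 (exact 95% binomial intervals 95.4 to 99.98% and 97.7 to 99.4%). These intervals cover counting error only. RNA that floats free in the droplets can give such UMIs, so roX1 was also read in cells of the same libraries with at least 20000 UMIs, an UMI of the neuronal gene nSyb and none of dpn, a class chosen after seeing the data. Among these neuron-like cells, those that held roX2 at 100 CPM or more had a median of 2601 CPM of roX1 in experiment 1 (7 cells) and 2560 CPM in experiment 2 (28 cells). Those free of roX2 had a median of 66.2 CPM (8 cells) and 0 CPM (30 cells). From 5000 UMIs on, the roX2-free ones had a median of 228 CPM (64 cells, 78.1% with a roX1 UMI) in experiment 1 and 0 CPM (163 cells, 22.1%) in experiment 2. In the roX2-free ones with at least 20000 UMIs a roX1 UMI was found in 62.5% of cells in experiment 1 and in 33.3% in experiment 2, at median depths of 24746.5 and 40488 UMIs. The median roX1 of roX2-free NBs, at 2857 and 2422 CPM, was above the median of roX2-free neuron-like cells of the same libraries at either depth. These are cells of another type, and the part of free RNA in the roX1 UMIs was not tested. Only 3 roX2-free NBs of experiment 1 and 44 of experiment 2 had under 500 CPM of roX1, and 29 of these 44 were NBs of the hth stage, the youngest. Over roX2-positive NBs, roX1 and roX2 were weakly related, with Spearman's rho of 0.25 over 90 cells and 0.20 over 519 cells, and of 0.10 and 0.15 after thinning each cell to 20000 UMIs. Cells of a library share its depth and are not replicates, and no test was made.

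Of the genes of the MSL complex, msl-2 differed most. Its RNA encodes the subunit that is limiting for the complex, and it lies on chromosome 2L. msl-2 had 66.8 and 73.9 CPM in the roX2-positive NBs of experiments 1 and 2, against 18.9 and 15.2 CPM in the roX2-free NBs. It was higher by a log2 fold change of 2.14 (SE 0.11, adjusted p = 0.00163), which is 3.54-fold in experiment 1 and 4.85-fold in experiment 2. In the neuron-like cells with at least 20000 UMIs, msl-2 stood at 11.8 and 18.1 CPM without roX2. It stood at 44.6 and 36.9 CPM in those with roX2 at 100 CPM or more. The gene mof, on the X chromosome, encodes the acetyltransferase of the complex, and had 40.7 and 42.6 CPM in roX2-positive NBs, against 22.8 and 25.3 CPM in roX2-free NBs (log2 fold change 0.77, SE 0.07, adjusted p = 0.0180). For both genes the groups did not overlap, which held in this direction for 10.6% of all genes tested. With each cell thinned to 20000 UMIs, an msl-2 UMI was found in 73.3% and 77.8% of roX2-positive NBs, against 33.6% and 27.8% of roX2-free NBs (92.2% and 95.8% against 61.3% and 54.4% before thinning).

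The other subunits did not pass the test. msl-1, the scaffold, had 109.8 and 82.3 CPM in roX2-positive NBs and 94.8 and 65.0 CPM in roX2-free NBs, a log2 fold change of 0.29 (SE 0.05, adjusted p = 0.0629). msl-3, a chromodomain protein, had 17.2 and 13.5 CPM against 11.1 and 10.1 CPM in roX2-free NBs (log2 fold change 0.48, SE 0.13, adjusted p = 0.204). mle, the RNA helicase that loads roX RNA, had 50.7 and 43.5 CPM against 44.1 and 38.2 CPM in roX2-free NBs (log2 fold change 0.18, SE 0.06, adjusted p = 0.316). All 3 had a positive log2 fold change in both experiments. Among the rest of the list, the genes of factors that bind with the complex or mark its chromatin (Clamp, JIL-1, Unr, Set2, Top2, the gene of heterochromatin protein HP1a, and Pof, which binds chromosome 4) had log2 fold changes from -0.10 to 0.02 and none was called. In all, 2 of the 12 listed genes were called, both higher, where 0.507% of all genes tested were called higher and 1.21% lower, and the median log2 fold change of the list was 0.01 beside 0.00 over all genes.

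**Figure D2:**
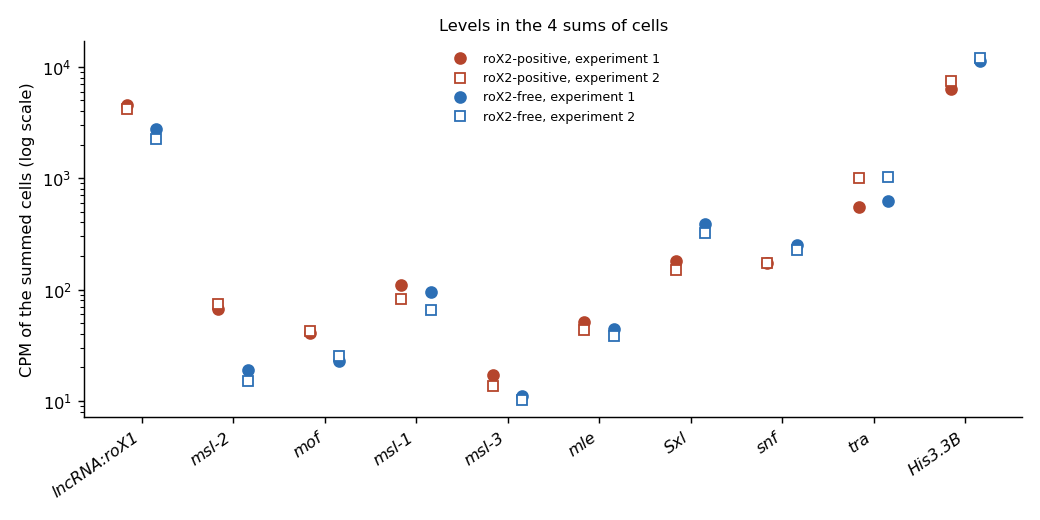
Levels of roX1, subunits of the dosage compensation complex (msl-2 to mle), genes of sex determination (Sxl, snf, tra) and His3.3B in the 4 sums of cells, in CPM on a log scale. Each symbol is 1 sum (circle, experiment 1; square, experiment 2; roX2-positive left of roX2-free); msl-2 stands at 66.8 and 73.9 CPM in roX2-positive cells and at 18.9 and 15.2 CPM in roX2-free cells.

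Sxl, the X-linked switch gene of sex determination, went the other way. It had 179.6 and 150.8 CPM in the roX2-positive NBs of experiments 1 and 2, against 385 and 321 CPM in the roX2-free NBs, a log2 fold change of -1.10 (SE 0.05, adjusted p = 0.00125). Both experiments gave -1.10, and the groups did not overlap. Sxl RNA was not absent from the roX2-positive cells: all 90 cells of experiment 1 and 98.1% of the cells of experiment 2 held an Sxl UMI, against all 119 and 99.9% of the roX2-free cells. The files count a gene as a whole, so male and female splice forms of Sxl cannot be told apart. snf, a spliceosome protein gene on the X chromosome that takes part in Sxl splicing, had 173 and 171 CPM in roX2-positive NBs, against 250.5 and 227 CPM in roX2-free NBs (log2 fold change -0.47, SE 0.05, adjusted p = 0.0250).

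Of the genes downstream of Sxl, msl-2 was called higher, as given above, while tra, dsx and fru did not pass the test. Splice forms of these 3 genes cannot be told apart in the counts either. The RNA of tra, whose splicing Sxl controls, had 549.8 and 995.9 CPM in roX2-positive NBs and 618 and 1034 CPM in roX2-free NBs (log2 fold change -0.12, SE 0.05, adjusted p = 0.397). The transcription factor genes dsx and fru, whose transcripts are spliced by Tra, were close to the limit of detection, at 0.73 to 4.35 CPM in the 4 sums. tra2, ix, her, da, vir, fl(2)d, nito, emc, dpn and gro, other genes of sex determination or of Sxl regulation, of which dpn was also used to choose the cells, had log2 fold changes from -0.10 to 0.04 and none was called. Of the X-linked genes that count chromosomes in the early embryo, sc had under 1 CPM in every sum and was not called, and run and sisA were too low to test. In this list of 18 genes, 16 were tested and 2 were called, Sxl and snf, both lower and both X-linked, where 1.21% of all genes tested and 6.56% of X-linked genes were called lower.

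The comparison of chromosomes asks whether X-linked genes as a class differed between NBs with and without roX2. They were a little lower in the roX2-positive NBs. Over 1341 X-linked genes, without both roX genes, the median log2 fold change was -0.15, and it was -0.14 in each experiment. Over 6032 genes of 2L, 2R, 3L and 3R it was 0.02, with medians between 0.01 and 0.02 for each of the 4 arms. The X-linked median lay 0.16 below the autosomal one in the fit and in both experiments, which puts the X-linked ratio at 89.3% of the autosomal ratio (89.5% in experiment 1 and 89.8% in experiment 2). The log2 fold change was negative in both experiments for 58.1% of the X-linked genes and for 23.2% of the autosomal genes. The 2 experiments are the only replicates and share the rule, and a class of genes was not tested. The small chromosome 4 had 81 genes tested, with a median of -0.05 and no call (2 of its genes had an unadjusted p under 0.05).

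**Figure D3:**
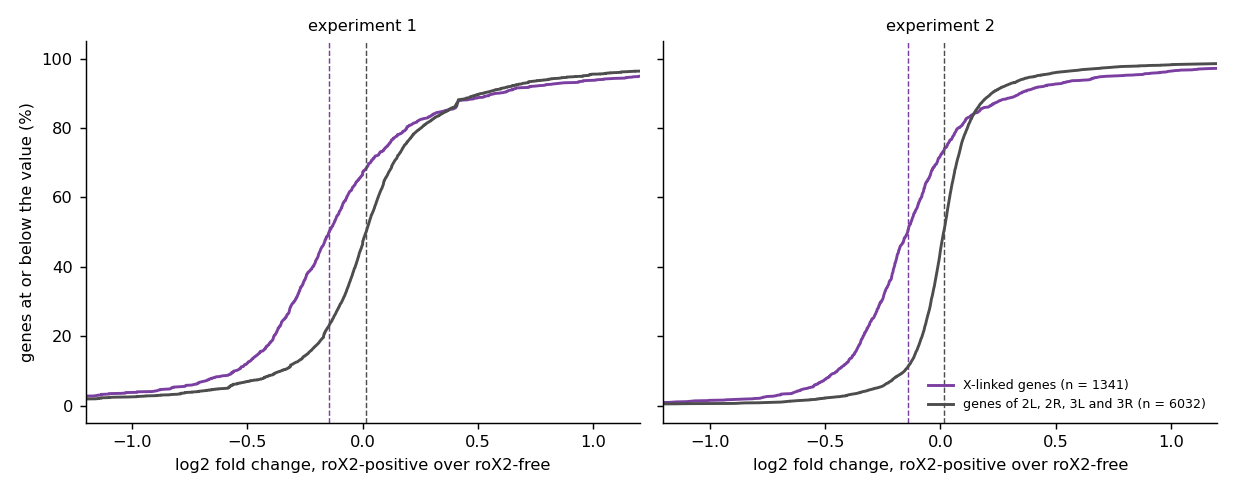
Cumulative share of genes (percent) by log2 fold change of roX2-positive over roX2-free neuroblasts, for X-linked genes without both roX genes (purple, n = 1341) and genes of the 4 autosomal arms (grey, n = 6032), in experiment 1 (left) and experiment 2 (right). Dashed lines are the medians, -0.14 for X-linked genes in each experiment and 0.01 to 0.02 for autosomal genes; values beyond 1.2 on either side are not drawn.

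The share of RNA from the X chromosome was also lower in the roX2-positive NBs. X-linked genes other than roX1 and roX2 held 17.2% and 16.7% of the UMIs of the roX2-positive NBs in experiments 1 and 2, against 18.8% and 18.2% in the roX2-free NBs. This amounts to -1.64 percentage points for experiment 1 and -1.50 for experiment 2. Over single cells, the upper quartile of the roX2-positive NBs (17.7% and 17.2%) lay below the lower quartile of the roX2-free NBs (18.5% and 17.8%). lncRNA:CR34335 and His3.3B, the X-linked genes with the most UMIs, make up a part of this: without them the shares were 13.4% and 13.1% in roX2-positive NBs, against 14.2% and 13.9% in roX2-free NBs.

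The shift of X-linked genes was negative in each class of expression level. By mean level, the X-linked median was -0.11 for 608 genes under 20 CPM, -0.17 for 497 genes from 20 to 100 CPM, -0.17 for 191 genes from 100 to 500 CPM and -0.09 for 45 genes at 500 CPM or more. The autosomal medians of the same classes lay between 0.00 and 0.04. Most X-linked genes were not called, and these 1230 genes still had a median of -0.14, with 71.3% of them negative.

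The fit called 129 of the 7496 genes tested, or 1.72%, at an adjusted p under 0.05, and 38 of these were higher and 91 lower in the roX2-positive NBs. Of the X-linked genes, 23 (1.72%, without roX1) were higher and 88 (6.56%) lower, where 0.507% and 1.21% of all genes tested were. Of the autosomal genes, 12 were higher and 2 were lower. All 129 had the same sign in both experiments. The fit favours this, since its error comes from the disagreement between the 2 libraries, so the shared sign is not separate evidence. The fit has 1 residual degree of freedom and depends on the library as a block: without the block no gene passed (0 calls, with 204 genes at an unadjusted p under 0.05, of which 158 were X-linked), and DESeq2 called 68 with the block. The p-values rest on the spread between these 2 libraries, and edgeR draws the error of each gene towards that of other genes (median prior degrees of freedom 4.88).

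The largest falls were almost all X-linked. By the rule of at least 50 CPM in the higher group, the 10 genes that fell most were pre-rRNA:CR45845, Sxl, His3.3B, CG11590, lawc, CG11752, Pis, RPA3, CG3038 and lncRNA:CR45102, and all except the first lie on the X chromosome. His3.3B, 1 of the genes for the replacement histone H3.3, had 6339 and 7397 CPM in roX2-positive NBs, against 11216 and 11877 CPM in roX2-free NBs (log2 fold change -0.76, SE 0.03, adjusted p = 0.000889). CG11752 had 119.8 and 134 CPM, against 186 and 206 CPM in roX2-free NBs (log2 fold change -0.63, SE 0.04, adjusted p = 0.00483). RPA3, a subunit of the replication protein that coats single-stranded DNA, had 301 and 361 CPM, against 450.0 and 519 CPM in roX2-free NBs (log2 fold change -0.56, SE 0.05, adjusted p = 0.0180). In these 3 genes and in Sxl both roX2-positive sums were below both roX2-free sums, as in 10.7% of all genes tested and 32.6% of X-linked genes. The other X-linked genes of the 10 had log2 fold changes from -0.69 (CG11590) to -0.51 (lncRNA:CR45102), among them Pis, the phosphatidylinositol synthase gene, at -0.57. Pis and CG3038 were each not called in 2 alternatives with the block, DESeq2 (adjusted p = 0.103 and 0.142) and equal cells per CycB and PCNA class (adjusted p = 0.0557 and 0.0648). Most calls were smaller, with a median of -0.39 over the 88 X-linked genes called lower. Well-known members of this set, picked after their values were seen, were N, the Notch receptor gene (log2 fold change -0.37, SE 0.04, adjusted p = 0.0308), and G9a, a histone H3 methyltransferase gene (log2 fold change -0.48, SE 0.05, adjusted p = 0.0180).

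Among the most abundant X-linked genes, lncRNA:CR34335 had 31682 and 27785 CPM in roX2-positive NBs, against 34986 and 31072 CPM in roX2-free NBs, so the groups overlapped across experiments, while each experiment gave a fall (log2 fold change -0.16, SE 0.01, adjusted p = 0.00160). Besides this RNA, His3.3B and roX1, the other 7 of the 10 most abundant were not called. They were Cyp1 (a cyclophilin), Act5C (a cytoplasmic actin) and the ribosomal protein genes RpL36, sta, RpL37a, RpS10b and RpL7A. Their log2 fold changes ran from -0.15 (Act5C) to 0.08 (RpL37a and RpL7A).

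The rises at 50 CPM or more fell into a few large and several small ones. They were pre-rRNA:CR45847, msl-2, Obp99a, jim, cac, roX1, Hsp60A, l(1)G0320, cib and ssx, and 6 of the 10 are X-linked. cac, the gene of a voltage-gated calcium channel, had 71.6 and 56.6 CPM in roX2-positive NBs, against 45.1 and 30.5 CPM in roX2-free NBs (log2 fold change 0.81, SE 0.07, adjusted p = 0.0180). ssx, a paralogue of Sxl on the X chromosome, had 121.6 and 115.2 CPM, against 100.7 and 86.6 CPM in roX2-free NBs (log2 fold change 0.35, SE 0.05, adjusted p = 0.0462), a rise that was not called in 3 of the alternatives with the block. Hsp60A, a mitochondrial chaperonin, l(1)G0320 and cib, an actin-binding protein, had log2 fold changes of 0.42, 0.38 and 0.36, and l(1)G0320 was not called with equal cells per CycB and PCNA class (adjusted p = 0.0713). Larger rises were found at low levels, and these were named after their values were seen: bnb on the X chromosome had 19.1 and 22.7 CPM in roX2-positive NBs, against 3.42 and 4.51 CPM in roX2-free NBs (log2 fold change 2.36, SE 0.14, adjusted p = 0.00340). CG2145, also X-linked, had 11.7 and 13.1 CPM against 2.60 and 3.02 CPM (log2 fold change 2.12, SE 0.18, adjusted p = 0.0180).

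Several rises rested on few cells. A single cell gave 84.0% of the Obp99a UMIs of the roX2-positive NBs in experiment 1 and 71.3% in experiment 2. Without the top cell of each gene in each sum, the log2 fold change of Obp99a was 0.12 in place of 1.83 (adjusted p = 0.933), and dysc (adjusted p = 0.0656) and Sh, a potassium channel gene (adjusted p = 0.0660), were no longer called. A single cell gave 85.7% and 98.3% of the roX2-positive UMIs of beat-IIIc, which was then too low to test. For jim, a zinc finger gene, single cells gave up to 45.4% of the roX2-positive UMIs, and its log2 fold change of 0.87 was 0.64 without the top cells (adjusted p = 0.0258) and turned to -0.19 without the filter on mira. msl-2, Sxl, mof, roX1 and His3.3B kept their calls without their top cells. Of the X-linked calls, 23 of 24 higher (with roX1) and 87 of 88 lower were kept, and of the 12 autosomal genes called higher, 9 were.

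The 12 autosomal genes called higher included msl-2, trv, bru3, dysc, beat-IIIc, Obp99a, jim, RpL34a, Lac, EMC8-9 and Ts, named here because they are few. For trv, with the largest log2 fold change (3.27, SE 0.30), 58.3% of the roX2-positive UMIs of experiment 1 came from 1 cell, and for bru3 (1.96) up to 60.9% did. RpL34a, a ribosomal protein gene, had 905 and 938 CPM in roX2-positive NBs, against 716 and 725 CPM in roX2-free NBs (log2 fold change 0.35, SE 0.04, adjusted p = 0.0300). The 2 autosomal genes called lower were Cam, the calmodulin gene (log2 fold change -0.15, SE 0.02, adjusted p = 0.0486), and ImpL2, which encodes a protein that binds insulin-like peptides (log2 fold change -0.57, SE 0.07, adjusted p = 0.0360).

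The 2 lowest p-values of the edgeR fit belonged to transcripts of the ribosomal DNA, a repeat array that flies carry on the X and Y chromosomes. pre-rRNA:CR45847 had 846 and 439 CPM in roX2-positive NBs, against 190.3 and 95.5 CPM in roX2-free NBs (log2 fold change 2.17, SE 0.06, adjusted p = 0.000149). pre-rRNA:CR45845 had 80.5 and 41.7 CPM in roX2-positive NBs, against 1137 and 791 CPM in roX2-free NBs (log2 fold change -4.05, SE 0.11, adjusted p = 0.000149). Both are copies of the same repeat unit, so reads could be divided between them in the counting, and their values are uncertain. SteXh:CG42398, on an unplaced scaffold and a member of the repeated Stellate family, is uncertain for the same reason (5.00 and 6.18 CPM in roX2-positive NBs, against 1.63 and 1.97 CPM in roX2-free NBs). Of 113 Y-linked genes, 106 had no UMI in any sum and none could be tested. All Y-linked genes together had 8 UMIs in roX2-positive NBs, against 1 in roX2-free NBs, and no ratio is drawn from so few.

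**Figure D4:**
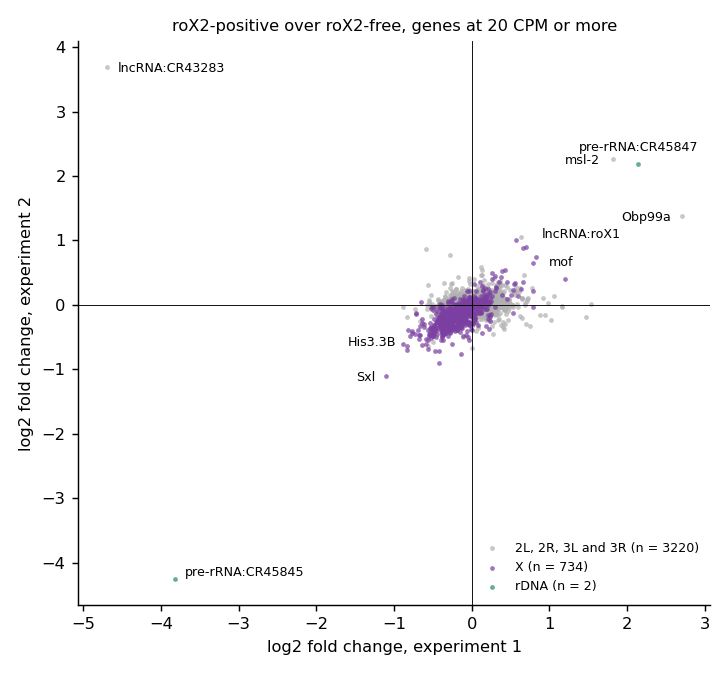
Log2 fold change of roX2-positive over roX2-free neuroblasts in experiment 1 (x axis) and experiment 2 (y axis) for genes with a mean of at least 20 CPM in the 4 sums. Each point is a gene on the X chromosome (purple, n = 734), the 4 autosomal arms (grey, n = 3220) or the ribosomal DNA (green, n = 2); X-linked genes lie mostly below 0 on both axes, Sxl at -1.10 on both, and lncRNA:CR43283 has opposite signs.

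A single gene of the 4032 with a mean of at least 20 CPM differed by 1 or more on the log2 scale in opposite directions, and it was chosen for that. lncRNA:CR43283 on 3R had 37.0 and 1226 CPM in the roX2-positive NBs of experiments 1 and 2, against 954 and 94.3 CPM in the roX2-free NBs. A few cells set these sums, since the median cell had 10.4 and 0 CPM in roX2-positive NBs and 8.11 and 0 CPM in roX2-free NBs. The single cell with the most UMIs held 80.2% of the roX2-free sum of experiment 1 and 34.3% of the roX2-positive sum of experiment 2. It was not called (adjusted p = 1.0).

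Few of the genes next to roX1 or roX2 on the chromosome could be tested. None was called higher, where 1.72% of X-linked genes were, and so few genes cannot show whether neighbours differ from other X-linked genes. In the reference annotation (BDGP6.54) roX1 lies on chromosome X from 3857230 to 3862697 on the minus strand, and roX2 from 11579065 to 11580432 on the plus strand. Of the 5 annotated genes on each side of roX1, 3 were expressed enough to test (ec, VhaAC39-1 and CG42541), with log2 fold changes of 0.42, -0.04 and -0.03 and no call. Of the 10 around roX2, 6 were tested. e(y)2, which encodes a shared subunit of the SAGA and mRNA export complexes, was called lower, with 118.5 and 124 CPM in roX2-positive NBs, against 142 and 150.1 CPM in roX2-free NBs (log2 fold change -0.28, SE 0.04, adjusted p = 0.0470). Of all X-linked genes tested, 6.56% were called lower. Kmn1, Reepl1, CG11696, CG11695 and nod were not called, at -0.21 to 0.47. The other neighbours (fd3F, the 2 tRNA genes tRNA:Gln-CTG-2-1 and tRNA:Pro-CGG-3-1, CG2901, yin, CG2930, CG15239, CG1561, CR43217, CR43216 and CR43215) had under 1 CPM in each sum. Over wider windows the X-linked median was -0.03 for 13 genes within 100 kb of roX1 and -0.21 for 21 genes within 100 kb of roX2. From 100 to 500 kb these were -0.30 for 29 genes and -0.13 for 65 genes, and beyond 2000 kb they were -0.15 for both.

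The 261 cells between the groups lay between them in most measures. Their sums had 3619 and 3541 CPM of roX1 in experiments 1 and 2, and 17.7% and 17.1% of UMIs on X-linked genes without both roX genes. They were also the deepest cells, with medians of 59518.5 and 64628 UMIs. Divided by roX2 level, the 103 cells of experiment 2 from 50 to 100 CPM resembled roX2-positive NBs in value. They had 4008 CPM of roX1, 72.2 CPM of msl-2, 157 CPM of Sxl and an X-linked share of 16.7%. The 116 cells with a roX2 UMI and under 50 CPM had intermediate values, with 3145 CPM of roX1, 45.1 CPM of msl-2, 220 CPM of Sxl and 17.4%. Within the roX2-positive NBs, cells of experiment 2 at 100 to 150 CPM of roX2 had 69.4 CPM of msl-2 and an X-linked share of 16.7%, and those at 300 CPM or more had 91.6 CPM and 16.7%. In experiment 1 these were 66.2 CPM and 17.1% at 100 to 150 CPM of roX2, and 83.6 CPM and 17.2% at 300 CPM or more. msl-2 was thus highest in the highest class in both experiments, but in experiment 1 it was 57.9 CPM at 150 to 200 CPM. Among roX2-positive NBs, Sxl was also highest in the highest class, at 232 and 181 CPM, against 172 and 144 CPM at 100 to 150 CPM. Cells of the highest class were the shallowest, with medians of 25693 and 34307 UMIs. In experiment 1, the 17 cells from 50 to 100 CPM had 4003 CPM of roX1, 47.1 CPM of msl-2, 213 CPM of Sxl and 17.5%. The 25 cells of experiment 1 under 50 CPM had 3295 CPM of roX1, 28.8 CPM of msl-2, 321 CPM of Sxl and 17.9%.

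Medulla NBs pass through a series of temporal transcription factors as they age, and each deep NB was given the stage of the factor that was highest relative to its own range (hth, ey, slp1, D, B-H1, tll or gcm, in order of age). The groups had similar shares of most stages, and the exact 95% intervals of the shares overlapped for all 7 stages in experiment 1. In experiment 2 they overlapped for all stages except tll, which took 7.71% of roX2-positive NBs (5.56 to 10.3%) and 3.91% of roX2-free NBs (2.72 to 5.42%). In experiment 2, where the hth label can rest on few hth UMIs, the roX1 level was lowest at the hth stage in both groups. It was 2944 CPM in hth, 4529 CPM in slp1 and 6056 CPM in gcm NBs that were roX2-positive, against 1077, 2447 and 2766 CPM in those that were roX2-free. In experiment 1 the 21 roX2-positive ey NBs had 3901 CPM against 2481 CPM in the 25 roX2-free ones, and the 23 B-H1 NBs of each group had 5645 CPM against 3150 CPM in roX2-free ones. The ratio of roX1 between the groups ran from 1.67-fold in D to 2.73-fold in hth in experiment 2.

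**Figure D5:**
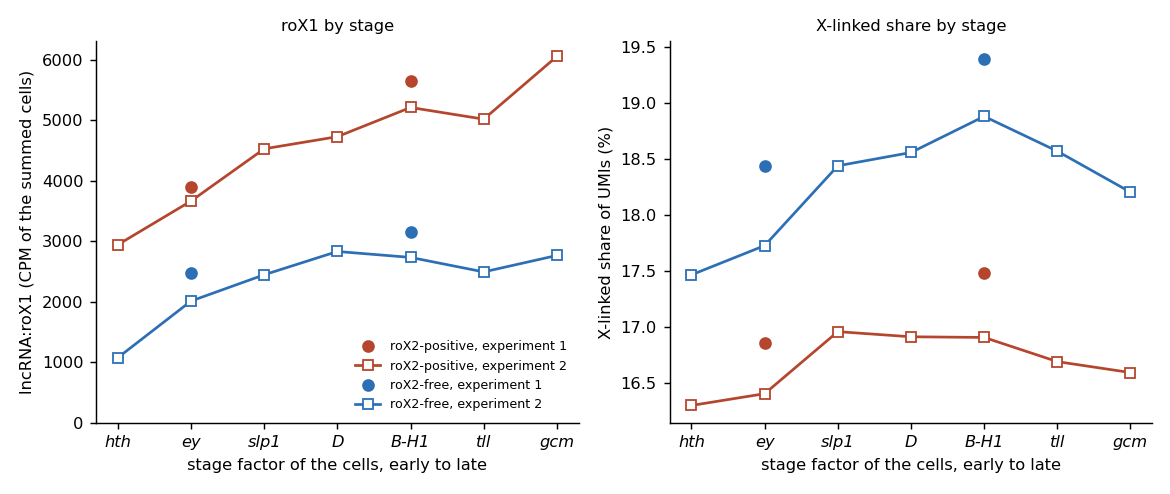
roX1 (left, CPM of the summed cells) and the X-linked share of UMIs without both roX genes (right, percent; the axis does not start at 0) by stage, for roX2-positive and roX2-free neuroblasts; stages with at least 20 cells in both groups of an experiment are drawn (filled circles, experiment 1; open squares, experiment 2). In each of the 9 pairs the roX2-positive cells are higher in roX1 and lower in X-linked share, by 1.16 to 1.97 percentage points.

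The lower X-linked share of roX2-positive NBs was present in each stage with at least 20 cells in both groups. In experiment 2 it was 16.3% against 17.5% in roX2-free NBs at the hth stage (-1.16 points) and 16.9% against 18.9% at the B-H1 stage (-1.97 points). In experiment 1 it was -1.58 points at the ey stage and -1.91 points at the B-H1 stage. msl-2 was 3.18-fold and 4.13-fold higher in these 2 stages of experiment 1, and 3.21-fold (hth) to 6.90-fold (gcm) higher in experiment 2. Sxl stood at 0.38 to 0.61 of its roX2-free level in all 9 pairs. Cells are not replicates, and the stages of a library were not tested.

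Other gene groups differed little between roX2-positive and roX2-free NBs. None of the 14 stage factors was called, beside 1.72% of all genes. The largest log2 fold changes among them were 0.60 for tll, 0.51 for gcm and -0.49 for D, and tll and gcm differed in sign between the experiments. None of the 10 S-phase genes and 10 G2/M genes was called, and their medians were 0.03 and -0.01, with RnrS (0.08) and CycB3 (0.07) the farthest from 0. Shares by cell cycle differed more: cells low in CycB and high in PCNA, by the median of each library, were 21.6% of roX2-positive NBs and 13.8% of roX2-free NBs in experiment 2 (exact 95% intervals 18.1 to 25.4% and 11.6 to 16.3%), and 20.0% and 16.8% in experiment 1, where the intervals overlapped. Equal numbers of cells in each such class left 90 cells per group in experiment 1 and 519 in experiment 2. This setting called 38 genes in place of 129, and all 38 were among the 129. Equal cells per stage left 84 and 513 cells per group and called 218 genes, 126 of them among the 129. The cause of the drop to 38 was not tested. None of the 9 heat shock genes was called, with Hsp68 (0.30) and Hsp70Aa (0.22) the farthest from 0. Of 85 ribosomal protein genes tested, 2 (RpL34a and RpL17) were called higher, where 0.507% of all genes tested were. Their median was 0.05 (0.06 in experiment 1 and 0.04 in experiment 2).

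Of the 10 NB markers none was called and the median was -0.04, but dpn and mira are among them, and the choice of cells required a UMI of both. The largest log2 fold change among them was that of grh, a transcription factor gene, which had 3.70 and 5.10 CPM in roX2-positive NBs, against 1.63 and 2.16 CPM in roX2-free NBs (log2 fold change 1.22, SE 0.27, adjusted p = 0.118). Their summed level was 4705 and 4371 CPM in roX2-positive NBs, against 4689 and 4473 CPM in roX2-free NBs. Markers of other cells were low or alike, with exceptions that moved with the group. Of 7 neuroepithelium markers 1, Obp99a, was called higher, where 0.507% of all genes tested were called higher. All 7 had a positive log2 fold change in the fit, with a median of 0.84. The median was 1.97 in experiment 1 and 0.66 in experiment 2, where Ocho stood at -0.10. Their summed level was 273 and 133 CPM in roX2-positive NBs, against 103 and 108 CPM in roX2-free NBs, where Obp99a gave 92.6 and 24.7 CPM and, in roX2-free NBs, 14.2 and 9.39 CPM. Of 8 neuron markers 1, Sh, was called higher (12.4 and 8.06 CPM in roX2-positive NBs, against 4.55 and 2.74 CPM in roX2-free NBs), and nSyb had 1.17 to 7.83 CPM in the 4 sums. Their summed level was 1319 and 954 CPM in roX2-positive NBs, against 1448 and 1053 CPM in roX2-free NBs, most of it from elav. Of the 6 markers of ganglion mother cells or new neurons none was called, with summed levels of 1711 and 985 CPM in roX2-positive NBs, against 1063 and 924 CPM in roX2-free NBs. Glial markers, of which 4 of 8 could be tested, were not called, and the defining glial gene repo had under 1 CPM in each sum. Haemocyte, muscle or trachea, and fat body markers summed to 0.87, 20.7 and 1.22 CPM at most in a roX2-positive sum and to 0.42, 25.2 and 1.31 CPM at most in a roX2-free sum, with Lsp2, Hml and other defining genes at or near 0. Their part in the differences above was not tested, apart from cells with an nSyb UMI (9 and 7 roX2-positive NBs, 10 and 24 roX2-free NBs): without these cells, roX1 had a log2 fold change of 0.81 and 123 genes were called.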

How the data were processed

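The authors sorted cells that were both green and red, made 10x Chromium 3' libraries and counted reads with Cell Ranger (3.0.1 for experiment 1 and 3.1.0 for experiment 2) on Ensembl BDGP6.22. The authors deposited a matrix of UMI counts for each of the 2 libraries, and these held 42618478 and 116712060 UMIs. Here, UMI counts were summed over roX2-positive and over roX2-free NBs of each library, which gave 4 sums of 4597997 and 28644845 UMIs (roX2-positive) and 6148323 and 49633761 UMIs (roX2-free). Beyond the 5 deepest cells no doublets were removed. The sums were fitted with edgeR 4.0.16 (R 4.3.3; TMM normalisation, filterByExpr, quasi-likelihood test) with the library as block, and genes with an adjusted p under 0.05 were called. roX2 was left out of the test. The SE is the absolute log2 fold change divided by the square root of F. Each library is 1 pool of larvae, which pairs its sums, and the library deviations of the groups correlated at 0.39 over genes. Cells are not replicates. Of 17753 genes, 17626 were placed by identifier on BDGP6.54 (Ensembl), 48 by symbol and 79 not at all.

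The members, gene lists and tests were chosen with earlier results of these data known. Named were genes of the fixed lists, the 5 neighbours on each side of both roX genes, the 10 called genes that rose most and the 10 that fell most (at least 50 CPM in the higher group, same sign in both libraries), the 10 most abundant X-linked genes, and of other lists the 2 to 4 members with the largest change. Alternatives were other normalisations, DESeq2 1.42.0, no filter, other limits, thinning to 20000 UMIs, matched stages or phases, and each library alone. The name and values of 1 called gene are not reported here.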

Additional observations from a re-analysis of the deposited data

How the results depend on the processing

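The direction of roX1, msl-2, mof and Sxl was kept under every alternative run with the roX2 groups. In each fit of the roX2 groups with the replicate block these 4 genes stayed called. Without the replicate block, 0 genes were called higher and 0 lower, on the X chromosome 0 and 0, and roX1 had 0.79 (adjusted p = 1.0). The counts below are of genes called higher, lower, X-linked higher and X-linked lower, against 38, 91, 23 and 88. DESeq2 gave 26, 42, 14 and 41, no filter on low counts 105, 212, 42 and 202, and a limit of 50 CPM of roX2 155, 274, 57 and 257. A limit of 200 CPM gave 313, 286, 63 and 201, at least 10000 UMIs 59, 163, 29 and 157, and thinned cells 60, 132, 30 and 122. No filter on mira gave 25, 60, 15 and 55, a mitochondrial limit of 20% 58, 165, 28 and 158, equal cells per stage 54, 164, 29 and 151, and equal cells per CycB and PCNA class 14, 24, 9 and 23. Without each gene's top cell, a setting chosen after seeing the data, they were 97, 189, 41 and 181. The cause of these changes was not tested.

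The X-linked median less the autosomal one was -0.16 (log2). It was -0.17 without the block, -0.16 without the filter, -0.16 at 50 CPM, -0.14 at 200 CPM, -0.15 at 10000 UMIs, -0.17 at 30000 UMIs, -0.16 in thinned cells, -0.17 without mira, -0.17 at the mitochondrial limit of 20%, -0.16 with equal stages and -0.17 without top cells. Leaving out a library gave -0.16 for either, X-linked shares of -1.64 to -1.50 points and roX1 at 0.70 to 0.89. Equal stages gave an X-linked share of -1.47 points. Grouping by roX1 in place of roX2 left 1 and 11 free cells and gave 15, 251, 2 and 49 calls, a median difference of -0.092 and a share of -0.18 points. In it jim (-4.53), cac (-0.35), cib (-1.24), pre-rRNA:CR45845 (0.48), His3.3B (1.79), CG11752 (0.85), RPA3 (1.47) and CG3038 (0.61) changed sign. jim also did without the mira filter (-0.19).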
